A study of Mus musculus with 4 samples.

Results

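The 10 genes described here encode the proteins that fill, empty and refill the calcium store of the endoplasmic reticulum, together with the plasma membrane pumps that export calcium. They are *Atp2a3*, *Atp2a2*, *Atp2b1*, *Atp2b4*, *Itpr1*, *Itpr2*, *Itpr3*, *Stim1*, *Stim2* and *Orai1*. They were taken by gene name from a table of 55356 genes, and each name matched 1 gene. The set was chosen by the normalized counts of *Atp2a3*, which were near 0 in one of the cell lines, so the difference of *Atp2a3* between the lines is given as a description. The RNA came from macrophages grown from the bone marrow of mice without *MK2* and then immortalized, so every cell carries the knockout. A virus had brought in either an empty vector with *GFP* (i*MK2*-KO +*GFP*, below +*GFP*) or *MK2* (i*MK2*-KO +*MK2*, below +*MK2*, with the genotype wt in the labels), and GFP-positive cells were sorted. Both lines were sequenced without treatment (UT) and with IL-1α (5 ng/mL, 1 h), as 1 library for each of the 4 conditions. Each genotype is 1 line, so an effect of MK2 and any other difference between the lines cannot be told apart.

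Calcium in resting cells is concentrated in the endoplasmic reticulum by SERCA pumps. Ligands that activate phospholipase C produce IP3, which opens IP3 receptors and lets the stored calcium into the cytosol. STIM proteins sense the emptied store and open ORAI channels in the plasma membrane, the store-operated entry, while PMCA pumps return calcium to the outside. In macrophages this cycle serves Fc receptor, chemokine and purinergic receptor signaling.

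The promoter sequences of 3 members are shown because these had the largest differences between libraries. *Atp2a3* and *Itpr2* differed most between the lines in UT cells. *Atp2b4* differed most between IL-1α-treated and UT cells of the +*GFP* line, on 32 against 6 normalized counts. Each window runs 5′ to 3′ on the gene's strand from 250 bases before to 50 bases after a RefSeq gene start, in the build GRCm38.p6. Capitals mark matches on either strand of GGGCGG, an Sp1-type motif, and of CCGGAAG or GAGGAAG, which are ETS-type motifs. Matches may overlap. The windows are chr11:72960919-72961218 (plus strand) for *Atp2a3*, chr6:146502174-146502473 (minus strand) for *Itpr2* and chr1:133753698-133753997 (minus strand) for *Atp2b4*.
Atp2a3: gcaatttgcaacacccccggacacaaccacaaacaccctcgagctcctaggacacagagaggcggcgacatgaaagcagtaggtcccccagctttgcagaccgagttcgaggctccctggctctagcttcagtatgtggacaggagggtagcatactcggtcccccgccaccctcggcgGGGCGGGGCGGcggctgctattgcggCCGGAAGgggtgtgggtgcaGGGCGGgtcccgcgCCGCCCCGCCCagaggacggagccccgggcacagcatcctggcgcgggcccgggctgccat
Itpr2: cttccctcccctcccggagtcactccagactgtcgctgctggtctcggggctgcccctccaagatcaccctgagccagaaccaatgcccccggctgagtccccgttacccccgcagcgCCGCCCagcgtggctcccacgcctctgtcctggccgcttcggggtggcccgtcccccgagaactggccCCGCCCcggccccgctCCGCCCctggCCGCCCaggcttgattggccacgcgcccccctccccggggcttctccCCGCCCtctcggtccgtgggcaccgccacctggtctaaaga
Atp2b4: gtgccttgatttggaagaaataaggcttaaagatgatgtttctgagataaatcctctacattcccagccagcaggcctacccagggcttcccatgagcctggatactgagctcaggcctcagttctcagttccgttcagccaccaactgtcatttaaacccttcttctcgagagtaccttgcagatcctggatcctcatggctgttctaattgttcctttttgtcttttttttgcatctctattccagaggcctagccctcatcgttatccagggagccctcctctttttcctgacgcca

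The window of *Atp2a3* held 5 matches to GGGCGG and 1 to CCGGAAG, the latter starting 45 bases before the gene start. It had 25 CpG dinucleotides, a number that 18.4% of all 32851 RefSeq windows reached or passed, against a median of 7. The window of *Itpr2* held 5 matches to GGGCGG and 26 CpG dinucleotides, and that of *Atp2b4* held 4 CpG dinucleotides and no match. RefSeq windows were found for 8 of the 10 members, and *Atp2b1* had 2. GGGCGG was present in 8 of these 9 windows and in 35.7% of all windows, and CCGGAAG in 1 of 9 and in 8.86% of all. Neither GAGGAAG nor TATAAA was found in the members' windows, and 13.6% of all windows held each of them. These matches are descriptions of sequence and no measure of binding.

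The values are DESeq2 normalized counts, rounded by the authors, and are given below as normalized counts. Gene positions are those of the deposited table, whose build is not named and differs from GRCm38. The normalized counts summed to between 24891906 and 25733071 in the 4 libraries. *Mapkapk2*, which encodes MK2, stood at 561 (UT) and 1585 (IL-1α) in +*GFP* and 38357 and 38141 in +*MK2* cells. The 9 macrophage markers were all expressed, with *Lyz2* at up to 64591. Beyond counting error 3 of them were higher and 5 lower in UT +*GFP* cells, and 4 were higher and 5 lower after IL-1α. Of the 12483 genes with a mean of at least 10, 30.8% were higher and 26.9% lower in UT cells. After IL-1α these shares were 33.7 and 26.3%. The single marker 2-fold apart was *Mertk*, a receptor for the uptake of dead cells, which was lower in +*GFP* cells, at 421 and 364 against 1093 and 1168. None of 21 markers of T and B cells, platelets, fibroblasts, epithelium, endothelium and muscle was above 8, and 11 were at 0 in all libraries. With 1 library per condition no difference has a replicate check, so no test was run and no p-value is given. A pseudocount of 1 was added before log2 ratios were taken. The 95% Clopper-Pearson intervals given in brackets take each normalized count as that number of reads. They cover counting error only and no variation between replicate libraries. Since the true number of reads is unknown, they are approximate. A ratio is called beyond counting error where its interval excludes 0. In bulk RNA, fewer cells with a transcript and less of it per cell cannot be told apart.

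**Figure D1:**
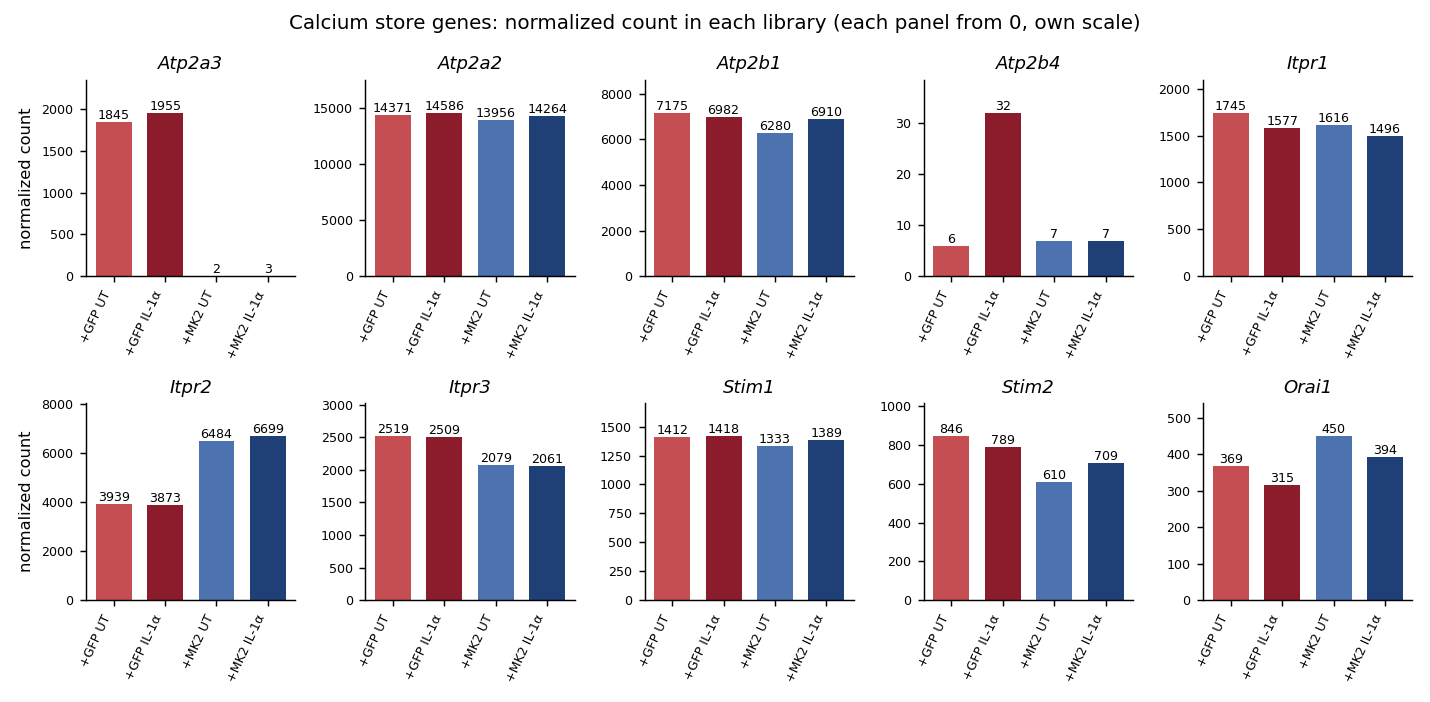
Normalized count (y axis, each panel from 0 on its own scale) of the 10 members in the 4 libraries (x axis), 1 bar per library with its value on top. *Atp2a3* stands at 1845 and 1955 in the +*GFP* libraries and at 2 and 3 in the +*MK2* libraries, whereas *Atp2a2* lies between 13956 and 14586 in all 4.

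Of the SERCA pumps, *Atp2a3* (SERCA3, the form known from blood cells, platelets and some epithelia) was expressed in +*GFP* cells and nearly absent in +*MK2* cells. *Atp2a2* (SERCA2, the pump that nearly every cell type uses) was almost level. *Atp2a3* (ENSMUSG00000020788.16; chromosome 11, 72851995 to 72883870) had 1845 normalized counts in UT and 1955 in IL-1α-treated +*GFP* cells. It stood at 2 and 3 in +*MK2* cells. Both libraries of one line lay far above both of the other, and the values of +*GFP* cells with and without IL-1α were close to each other. As plain ratios, UT +*GFP* cells were 922-fold higher (255 to 7623) and IL-1α-treated cells 652-fold higher (223 to 3163). With the pseudocount, these are log2 ratios of 9.27 and 8.93.

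*Atp2a2* (ENSMUSG00000029467.16; chromosome 5, 122591576 to 122640288) had 14371 and 14586 normalized counts in UT and IL-1α-treated +*GFP* cells, against 13956 and 14264 in +*MK2* cells. The lines did not overlap, but the log2 ratio was 0.04 (0.01 to 0.08) in UT cells and 0.03 after IL-1α, where the interval included 0. The UT value became -0.02 with scaling to *Gapdh*, so no direction is given. No normalized count of the third SERCA gene, *Atp2a1* of skeletal muscle, exceeded 2. *Pln* and *Sln*, the small inhibitors of SERCA in muscle, were at 0 in all libraries.

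Reads of close paralogs can be exchanged in counting. This was examined with windows of 31 bases over all GENCODE M21 transcripts of each member. *Atp2a3* shared 14 of its 5333 windows (0.263%) with *Atp2a2* and 26 with *Atp2a1*. *Atp2a2* shared 260 of 6109 windows with the transcript Gm30970. Among the other members, the share of windows found in any gene outside the set was at most 2.11% (*Atp2b4*).

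Levels of different genes were compared per kb of the principal transcript. On this scale, SERCA transcripts were the most abundant of the families, and *Atp2a2* stood at 3204 normalized counts per kb in UT +*GFP* and 3111 in UT +*MK2* cells. *Atp2a3* stood at 408 per kb in UT +*GFP* cells and 433 after IL-1α, and at 0.442 and 0.664 in +*MK2* cells. *Atp2a3* thus made up 11.3 and 11.7% of the SERCA level in +*GFP* cells and 0.0142 and 0.0209% in +*MK2* cells. The summed SERCA level was 3612 (UT) and 3684 (IL-1α) against 3111 and 3180, log2 ratios of 0.22 and 0.21.

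**Figure D2:**
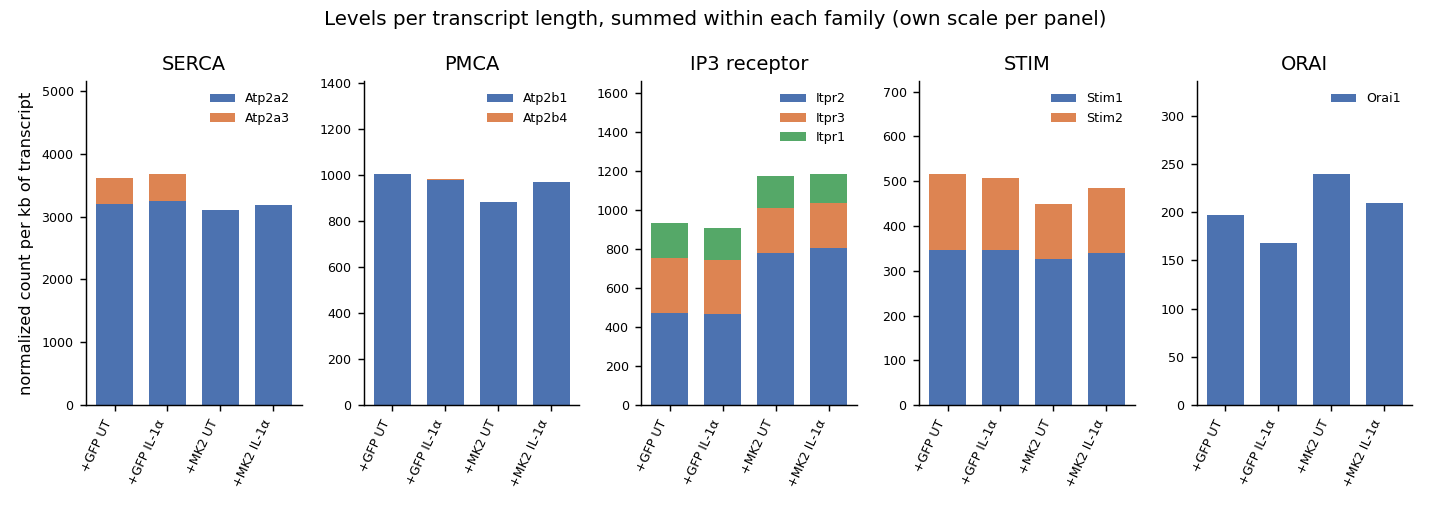
Normalized count per kb of transcript (y axis, each panel from 0 on its own scale), stacked for the members of each family, in the 4 libraries (x axis). The SERCA bar holds 408 and 433 per kb of *Atp2a3* in +*GFP* cells and under 1 in +*MK2* cells. *Atp2b4*, under 3 per kb, cannot be seen. The ORAI bar holds *Orai1* alone. The *Itpr2* part of the IP3 receptor bar is taller in +*MK2* cells.

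The IP3 receptors, the channels through which the store is emptied, differed between the lines in opposite directions. *Itpr2* was lower in +*GFP* cells, *Itpr3* was higher and *Itpr1* was close to level. *Itpr2* (ENSMUSG00000030287.16; chromosome 6, 146009797 to 146403721) encodes the form with the highest affinity for IP3. It reached 3939 normalized counts in UT and 3873 in IL-1α-treated cells of the +*GFP* line, and 6484 and 6699 in the +*MK2* line. These were log2 ratios of -0.72 (-0.78 to -0.66) and -0.79 (-0.85 to -0.73), the largest difference between the lines after *Atp2a3* in UT cells. Both values of one line lay below both of the other, with less than 4% between UT and IL-1α in either line.

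*Itpr3* (ENSMUSG00000042644.10; chromosome 17, 27276278 to 27341197) had 2519 and 2509 normalized counts in +*GFP* against 2079 and 2061 in +*MK2* cells. The log2 ratio was 0.28 in both comparisons (0.19 to 0.36 in UT cells, 0.20 to 0.37 after IL-1α). *Itpr1* (ENSMUSG00000030102.12; chromosome 6, 108190057 to 108528070), the form best known from neurons, had 1745 and 1577 against 1616 and 1496. Its lines overlapped, and the UT log2 ratio of 0.11 (0.01 to 0.21) stood at 0.08 after IL-1α (-0.03 to 0.18), or at -0.03 with scaling to *Gapdh*. Per kb, *Itpr2* was the most abundant of the 3 receptors in every library. It made up 50.9 and 51.4% of their level in +*GFP* and 66.3 and 67.9% in +*MK2* cells. *Itpr3* made up 30.1 and 30.9% against 19.7 and 19.3%. The summed level was 930 (UT) and 904 (IL-1α) per kb in +*GFP* and 1173 and 1185 in +*MK2* cells, log2 ratios of -0.34 and -0.39.

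Among the members that serve store-operated entry, *Stim2* was higher and *Orai1* lower in +*GFP* cells, and *Stim1* was close to level. *Stim1* (ENSMUSG00000030987.6; chromosome 7, 101917013 to 102086526), the main sensor of store depletion, had 1412 and 1418 normalized counts in +*GFP* and 1333 and 1389 in +*MK2* cells. Its log2 ratios of 0.08 (-0.03 to 0.19) and 0.03 (-0.08 to 0.14) lay within counting error, and the latter was -0.07 with scaling to *Gapdh*. *Stim2* (ENSMUSG00000039156.20; chromosome 5, 54155841 to 54278399) encodes a sensor that reacts to smaller losses of stored calcium. It had 846 and 789 normalized counts in +*GFP* against 610 and 709 in +*MK2* cells. The log2 ratio was 0.47 (0.32 to 0.62) in UT cells and 0.15 (0.01 to 0.30) after IL-1α, where it fell within counting error under each of 3 other scalings. *Orai1* (ENSMUSG00000049686.15; chromosome 5, 123153137 to 123168519), the pore of the entry channel, had 369 and 315 normalized counts in +*GFP* and 450 and 394 in +*MK2* cells. Its log2 ratios were -0.29 (-0.49 to -0.08) and -0.32 (-0.54 to -0.11). For both *Stim2* and *Orai1*, the 2 libraries of one line did not overlap with those of the other. Per kb, *Stim1* made up between 66.8 and 72.5% of the STIM level in the 4 libraries.

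Of the plasma membrane pumps, *Atp2b1* carried nearly the whole level, and *Atp2b4* was close to the detection limit. *Atp2b1* (PMCA1, the widely expressed form; ENSMUSG00000019943.11; chromosome 10, 98750268 to 98862005) had 7175 and 6982 normalized counts in +*GFP* and 6280 and 6910 in +*MK2* cells. The UT log2 ratio was 0.19 (0.14 to 0.24). After IL-1α it was 0.01 (-0.03 to 0.06), and the value in +*MK2* cells was higher than in UT by 0.14 (0.09 to 0.19). *Atp2b4* (PMCA4; ENSMUSG00000026463.18; chromosome 1, 133627195 to 133728779) had 6 normalized counts in UT and 32 in IL-1α-treated +*GFP* cells. It had 7 in both +*MK2* libraries. The 1 high library was that of IL-1α-treated +*GFP* cells. Even there *Atp2b4* made up 0.278% of the level of both pumps per kb. The remaining PMCA genes, *Atp2b2* and *Atp2b3*, had no value above 1.

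Read across the set, 1 of the 10 members, *Atp2a3*, was at least 2-fold apart between the lines in UT cells, beside 8.73% of the 12483 genes whose mean over the libraries was 10 or more (3.50% higher and 5.23% lower in +*GFP* cells). After IL-1α there were 2 such members, *Atp2a3* and *Atp2b4*, both higher in +*GFP* cells, beside 9.71% of all genes (4.15% higher, 5.56% lower). Beyond counting error, 6 members were higher and 2 lower in UT +*GFP* cells, 8 in all, where 57.7% of all genes differed, 30.8% higher and 26.9% lower. After IL-1α, 4 members were higher and 2 lower, against 60.0% of all genes, 33.7% higher and 26.3% lower. The 2 lower members were *Itpr2* and *Orai1* in both comparisons. These splits depend on the scaling. With scaling to *Gapdh*, 4 members were higher and 2 lower in UT cells, beside 23.9% of all genes higher and 32.5% lower. After IL-1α 3 were higher and 4 lower, beside 22.0 and 36.8%. Under the 3 other scalings tried, *Atp2a3*, *Itpr3*, *Itpr2* and *Orai1* kept their call and direction in both comparisons. *Stim2* in IL-1α-treated cells lost its call in each of the 3, and *Itpr1* and *Atp2a2* in UT cells lost theirs in 2. Both libraries of one line lay above both of the other for 8 members as deposited, 6 of them higher and 2 lower in +*GFP* cells, and the same held for 68.1% of all genes, made up of 37.2% of all genes that were higher in +*GFP* cells and the remainder that were lower. The median log2 ratio of the members was 0.10 in UT cells and 0.06 after IL-1α, beside 0.02 and 0.03 over all genes. With 10 members these counts say nothing particular of the set. All 10 members passed the minimum mean of 10, but *Atp2b4*, at a mean of 13.0, did so through its 1 high library (6.67 without it). As *Atp2a3* chose the set and *Atp2b4* passed in this way, nothing is read from the counts at 2-fold. *Atp2a3* is also in the counts beyond counting error and without overlap, and *Atp2b4* in the former after IL-1α. The same limit holds for those counts and for the medians of the members.

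**Figure D3:**
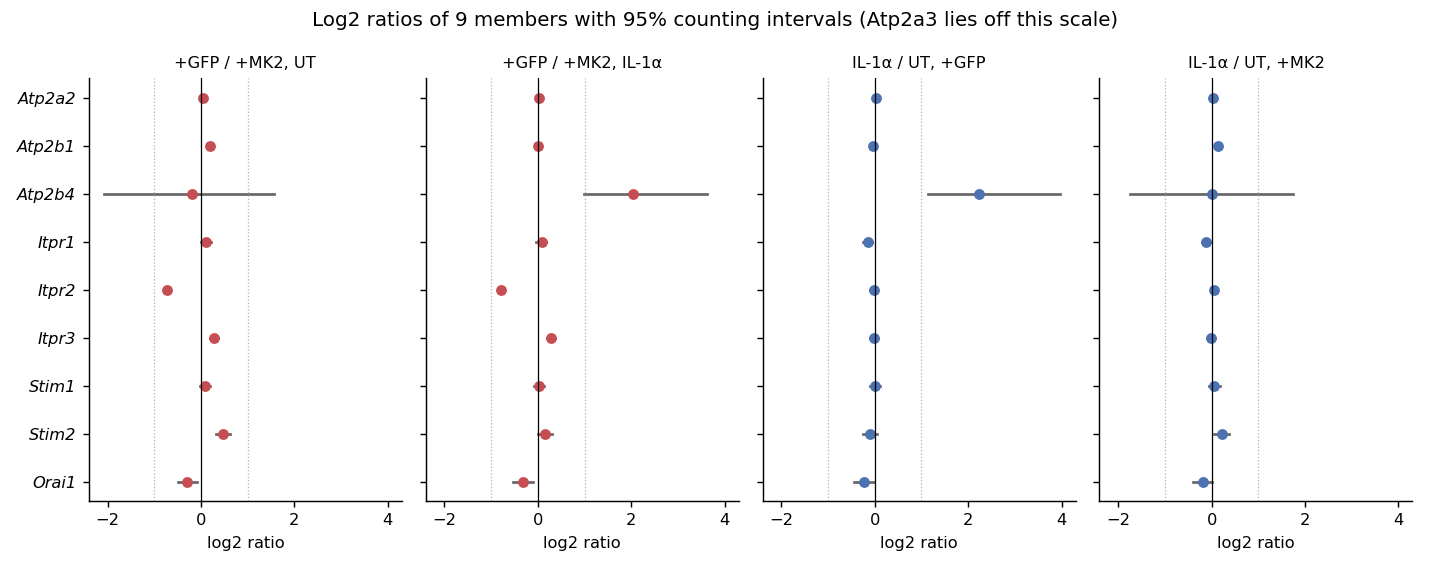
Log2 ratio (x axis) of the 9 members other than *Atp2a3*, with the 95% counting interval as a line, for the lines compared in UT and IL-1α-treated cells and for IL-1α against UT in each line. Dotted lines mark a 2-fold difference. *Itpr2* lies at -0.72 and -0.79 between the lines, and *Atp2b4* at 2.24 after IL-1α in +*GFP* cells.

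The response to IL-1α, a cytokine that activates NF-κB and p38 signaling within minutes, was small for these genes after 1 h. In +*GFP* cells *Atp2b4* was the single member at least 2-fold apart, higher by a log2 ratio of 2.24 (1.14 to 3.96), where 3.81% of all genes were 2-fold apart (2.24% higher, 1.58% lower). *Itpr1* was lower at -0.15 (-0.25 to -0.05) and *Orai1* at -0.23 (-0.45 to -0.01). In +*MK2* cells no member was 2-fold apart, against 1.91% of all genes (0.889% higher, 1.03% lower). There *Atp2b1* was higher by 0.14, *Stim2* was higher by 0.22 (0.06 to 0.38), and *Itpr1* was lower at -0.11 (-0.21 to -0.01). With scaling to *Gapdh*, 5 members were lower and 1 higher in +*GFP* cells, beside 19.3% of all genes lower and 12.7% higher. The calls named for either line held in each scaling. Thus, as deposited, 3 members differed beyond counting error in each line. In +*GFP* cells 1 was higher and 2 lower, where 32.3% of all genes differed, 20.0% higher and 12.3% lower. In +*MK2* cells 2 were higher and 1 lower, where 19.6% differed, 11.4% higher and 8.23% lower. *Orai1* stood at -0.19 (-0.39 to 0.01) in +*MK2* cells. The response of *Atp2a3* was 0.08 (-0.01 to 0.18) in +*GFP* cells, and its 2 and 3 normalized counts in +*MK2* cells allow no statement. The difference between the responses, +*GFP* minus +*MK2*, was 2.24 for *Atp2b4* and lay between -0.33 and 0.01 for the other members. It was not tested. These comparisons share libraries, so their values are not independent.

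Of the genes around *Atp2a3*, 10 were expressed in both lines. Within 500 kb of it the table lists 42 genes, 10 of them with a mean of at least 10. Before its start lay *Ube2g1*, *Ankfy1*, *Cyb5d2* and *Zzef1*, and after its end *Ncbp3*, *Haspin*, *Emc6*, *Tax1bp3*, *Ctns* and *Shpk*. The log2 ratios of these 10 genes between the lines ranged from 0.10 to 0.39 in UT cells and from -0.08 to 0.50 after IL-1α, with medians of 0.24 and 0.20. The nearest, *Zzef1*, ended 34.0 kb before *Atp2a3* and had 1731 and 1798 normalized counts in +*GFP* and 1410 and 1421 in +*MK2* cells. *Ncbp3* began 54.7 kb behind it, with 984 and 1035 against 839 and 887. Closer still, 6.1 kb behind the end, *P2rx1* was low in all libraries, at 14 and 11 against 6 and 7. Gene-level values do not show whether the *Atp2a3* locus itself is intact in +*MK2* cells.

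**Figure D4:**
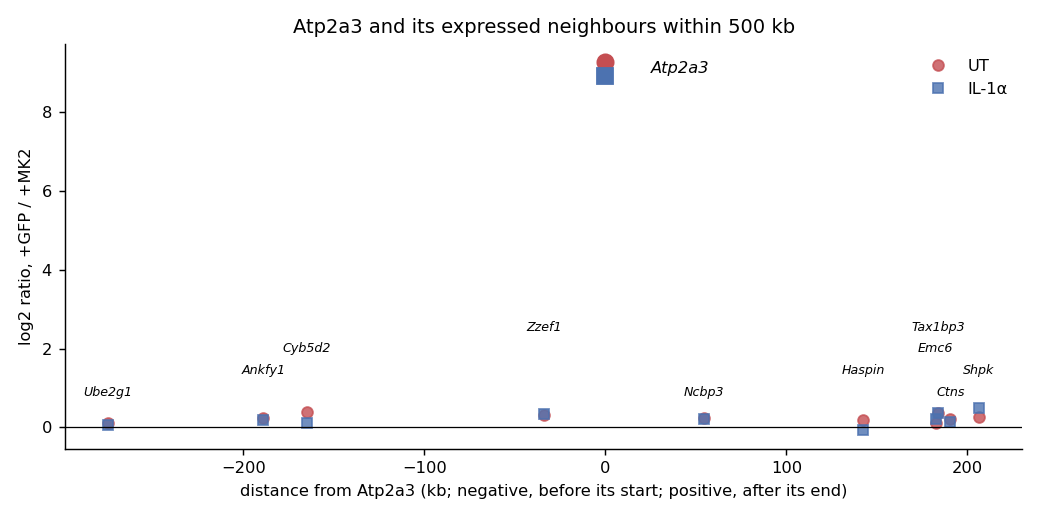
Log2 ratio of +*GFP* against +*MK2* cells (y axis) for *Atp2a3* and its 10 expressed neighbours, by distance from the gene in kb (x axis), in UT (circles) and IL-1α-treated (squares) cells. *Atp2a3* lies at 9.27 and 8.93, and the neighbours lie between -0.08 and 0.50.

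The genes whose pattern over the 4 libraries was nearest to that of *Atp2a3* were *Rn7s1*, *Rpl35a-ps2*, *Gpr141*, *Septin6* and *Zfp618*. Likeness was the distance between log2 profiles centred on their mean, from 2.15 for *Rn7s1* to 3.28 for *Zfp618*. None lies on chromosome 11. *Gpr141*, an orphan receptor, had 187 and 266 normalized counts in +*GFP* cells and 2 in both +*MK2* libraries. *Septin6*, which encodes a cytoskeletal GTPase, had 157 and 208 against 3 and 0. *Rn7s1* is a non-coding RNA and *Rpl35a-ps2* a processed pseudogene, and both were at 0 in +*MK2* cells. In all, 4 genes including *Atp2a3* had at most 3 normalized counts in both +*MK2* libraries and at least 100 in both +*GFP* libraries. The reverse held for 33 genes. The former include *Rn7s1* and the latter *Rpl35a-ps3*. Whether reads of these 2 were exchanged with those of similar sequences was not examined.

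The wider calcium machinery was described with 9 lists of 135 genes, of which 104 had a mean of at least 10. In UT cells 2 of these were at least 2-fold higher and 5 at least 2-fold lower in +*GFP* cells, and after IL-1α 5 were higher and 6 lower. Over all genes, 3.50% were higher and 5.23% lower in UT cells, and 4.15 and 5.56% after IL-1α. Of the lower genes, *Cracr2a* and *Jph1* were at 0 in both +*GFP* libraries and passed the minimum mean through the +*MK2* libraries alone. The counts after IL-1α include *Cracr2b*, *Inpp1* and *Trpm4*, which had no value above 29. Nothing is therefore read from these list counts.

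Close to the members stand the other genes of store-operated entry, 9 of 15 with a mean of at least 10. *Cracr2a*, a calcium-binding regulator of the ORAI1 and STIM1 complex, was at 0 in both +*GFP* libraries. It stood at 76 in UT and 120 in IL-1α-treated +*MK2* cells. With a floor of 3 counts in place of 0, *Cracr2a* was 25.3-fold and 40.0-fold lower in +*GFP* cells. The upper limits of its counting intervals were log2 ratios of -4.33 and -5.0. *Jph1* encodes a protein that joins the endoplasmic reticulum to the plasma membrane in muscle. It was likewise at 0 in +*GFP* cells and at 22 and 18 in +*MK2* cells. Against the same floor it was 7.33-fold and 6.0-fold lower in +*GFP* cells, with upper limits of -2.45 and -2.14. *Orai2*, a paralog of *Orai1*, had 1365 and 2219 normalized counts in +*GFP* and 1229 and 1154 in +*MK2* cells. After IL-1α it was thus higher by 0.70 (0.60 to 0.80) in +*GFP* cells and stood at -0.09 (-0.21 to 0.03) in +*MK2* cells. *Orai3*, another paralog, had 855 and 784 normalized counts in +*GFP* cells and 760 in both +*MK2* libraries. Its log2 ratios between the lines were 0.17 (0.03 to 0.31) and 0.04 (-0.10 to 0.19). Both paralogs had more normalized counts than *Orai1* in every library. *Cracr2b*, the gene furthest up in this list after IL-1α (1.35), rests on 22 against 8 normalized counts.

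Upstream of the IP3 receptors, none of the 11 expressed genes of phospholipase C and IP3 metabolism was 2-fold apart in UT cells. *Plcb2*, the phospholipase downstream of chemoattractant receptors in blood cells, was the highest at 0.87 (0.78 to 0.97), with 2570 against 1401 normalized counts. *Plcg1* was lower at -0.49 (-0.61 to -0.37) and *Plcg2*, the form coupled to Fc receptors, was higher at 0.38 (0.33 to 0.42). *Itpkb*, which converts IP3 to IP4, was lower at -0.46 (-0.57 to -0.36). After IL-1α *Inpp1* was the single gene of this list 2-fold apart, with 8 against 29 normalized counts. None of 9 expressed partners of the release channels was 2-fold apart, and the ryanodine receptors, the release channels of muscle, had no value above 7.

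Among the other listed exchangers and channels, *Slc8a1*, the sodium-calcium exchanger of the plasma membrane, was higher in +*GFP* cells. It had 750 and 842 against 341 and 358 normalized counts. Its log2 ratios were 1.13 (0.95 to 1.33) and 1.23 (1.05 to 1.42). *P2rx7*, the ATP-gated channel that triggers inflammasome activation, was higher at 1.15 (1.04 to 1.27) and 1.03 (0.92 to 1.15). *Trpm4* passed 2-fold after IL-1α with 18 against 8 normalized counts, within counting error. Of 16 expressed calcium effectors, *Camk1d* was the single one 2-fold apart, at -1.34 (-1.49 to -1.20) in UT and -1.37 (-1.52 to -1.23) in IL-1α-treated cells.

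Emptying of the store by SERCA inhibitors is a classical trigger of the unfolded protein response, so its genes and the calcium-binding chaperones were listed too. None of 12 expressed chaperones and buffers was 2-fold apart between the lines. *Calr*, the main calcium buffer of the store, had 28264 and 29030 normalized counts in +*GFP* and 27101 and 28057 in +*MK2* cells. *Hspa5* (BiP) had 25413 and 28486 against 33017 and 33280, log2 ratios of -0.38 and -0.22. Of 21 genes of the unfolded protein response, 2 were at least 2-fold lower in UT +*GFP* cells and none was higher, with a list median of 0.02, the same as over all genes. They were *Chac1* (33 against 253 normalized counts, -2.90, -3.51 to -2.41) and *Trib3* (187 against 683, -1.86, -2.11 to -1.63), both targets of ATF4. *Atf4* itself stood at -0.64 (-0.68 to -0.59). *Xbp1*, a transcription factor of another branch, was higher at 0.68 (0.61 to 0.74), and *Ddit3* had 147 against 145 normalized counts. After IL-1α *Ppp1r15a* was higher in +*GFP* cells, with 1040 against 494, a log2 ratio of 1.07. Whether these values are related to that of *Atp2a3* was not tested.

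**Figure D5:**
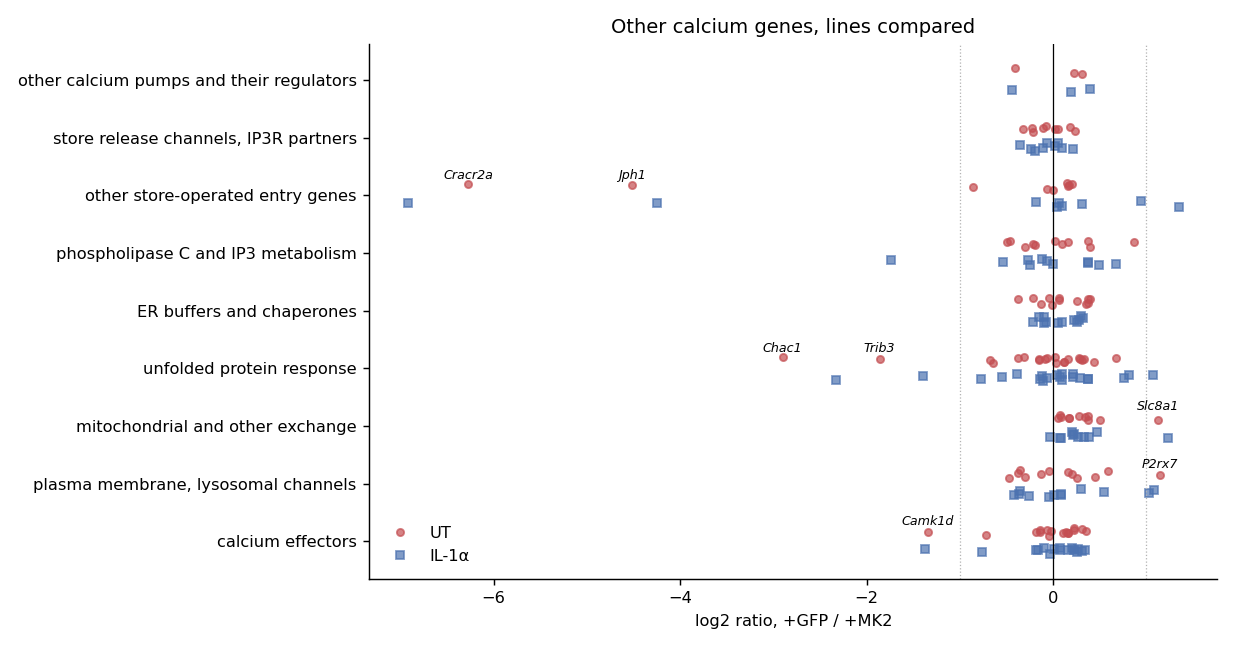
Log2 ratio of +*GFP* against +*MK2* cells (x axis) for the 104 genes of 9 calcium lists (y axis) with a mean of at least 10, in UT (circles) and IL-1α-treated (squares) cells. Dotted lines mark a 2-fold difference, names mark genes past it in UT cells, and the vertical scatter within a row has no meaning. *Cracr2a* lies furthest to the left at -6.27 and -6.92.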

How the data were processed

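The samples were 4 RNA sequencing libraries, 1 per condition. Per the labels, polyadenylated RNA was selected and read with 38 bases from each end, whereas the paper describes ribo-depletion and single reads. The authors deposited 1 table with 1 score per gene and library, which the key of their heatmaps names DESeq2 normalized counts, that is, counts per gene after division by a size factor, here whole numbers. The column names are those of salmon output. Versions are not given in the sources used here. The submitters' processing notes name GRCm38, but of 52080 genes found by ID in GENCODE M21 (GRCm38), 1739 had the same position and no member did. Positions are therefore those of the table, in a build it does not name, while RefSeq promoter windows and transcript lengths are of GRCm38.

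Columns were matched to samples by library name. Values were used as deposited, with no count model, and compared as log2 ratios after adding a pseudocount of 1. Counts over all genes used those with a mean of at least 10. Intervals were computed with scipy 1.17.1, and the computation was checked on simulated counts. These held no normalization and no variation between libraries, so the check does not bear on the deposited values. Transcript length is that of the principal GENCODE M21 isoform. The named genes are the members, the list genes furthest up and down past 2-fold or with a role beside a member's, the neighbours of *Atp2a3* within 500 kb and the 5 genes most like it. *Ddit3* is used by 2 genes, of which the expressed one was taken. Members and lists were chosen with earlier results of these data known. Protein sequences were not used here. Alternatives were 3 scalings, pseudocounts of 0.5 and 5, other minimum means, and intervals with 0.5 or 2 times as many reads.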

Additional observations from a re-analysis of the deposited data

Results flagged for a closer look

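Among the members, no gene moved in opposite directions in the lines after IL-1α with both values beyond counting error. Among the 104 expressed genes of the wider lists 5 did (4.81%), beside 3.52% of all 12483 genes, and the difference was not tested. *Herpud1*, which encodes a protein of endoplasmic reticulum-associated degradation, had a log2 response of 0.75 in +*GFP* and -0.22 in +*MK2* cells. The responses of *Eif2ak3* (PERK) were -0.19 and 0.19, and those of the channel *Trpm7* were -0.17 and 0.12. *Piezo1* stood at -0.06 and 0.09. *Asns* stood at 0.07 and -0.06. No group had enough libraries for a search for outlying samples.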

How the results depend on the processing

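Of 200 member ratios recomputed with other scalings or pseudocounts, 190 stayed within their counting interval. The sign changed in 13, all with another scaling and in 4 members (*Atp2a2*, *Atp2b1*, *Itpr1* and *Stim1*). Of these, 12 ratios were within counting error as deposited, and 1 was beyond it, that of *Atp2a2* between the lines in UT cells, at -0.02 with scaling to *Gapdh*. That scaling lowers all ratios of the lines after IL-1α by 0.10 on the log2 scale. Scaling to the total of the deposited values gave 12.9% of all genes higher and 19.0% lower in the response of +*GFP* cells, with 5 members lower and 1 higher. The log2 ratio of *Atp2a3* between the lines ranged from 8.05 to 9.53 in UT and from 7.94 to 9.13 in IL-1α-treated cells, that of *Itpr2* from -0.78 to -0.72 and from -0.89 to -0.79. Numbers of members 2-fold apart did not differ in any of these settings. Calls beyond counting error depend on the unknown depth. With 0.5 times as many reads, 5 members in place of 8 passed in the UT comparison of the lines (*Atp2a2*, *Itpr1* and *Orai1* no longer did) and 1 in place of 3 in the IL-1α response of +*MK2* cells, *Atp2b1*. With 2 times as many reads, 6 members in place of 3 passed in the response of each line. The share of all genes passing at these depths was not computed, so these counts say nothing particular of the set. The share of all genes 2-fold apart depends on the minimum mean. With no minimum it was 26.6% for the lines in UT cells, 26.6% after IL-1α, 21.7% for the response of +*GFP* and 19.9% for that of +*MK2* cells. With a minimum of 50 it was 5.51% for the lines in UT cells, and 1.75 and 0.397% for the responses. No paired analysis was possible because each comparison sets 1 library against 1 and came from no test.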

Other observations

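By the measure of likeness used for *Atp2a3*, applied to *Atp2b4* after its values had been seen, the nearest genes were *Rasgef1b*, *Bcl3*, *Notch4*, *Rapgef2* and *Zfp36*, at distances from 0.12 to 0.30 on the log2 scale. *Rasgef1b* stood at 1070 normalized counts in UT and 4820 in IL-1α-treated +*GFP* cells, and at 1091 and 1153 in +*MK2* cells. *Zfp36*, which encodes the mRNA-destabilizing protein tristetraprolin, had 641 and 2569 against 788 and 814, and *Bcl3*, an atypical IκB protein, had 30 and 135 against 35 and 29. These genes were selected for this pattern, so their values are a description. The pattern of *Atp2b4* rests on 32 normalized counts in 1 library against 6 or 7, and it passed the minimum mean through that library. Its log2 response in +*GFP* cells had a counting interval of 1.14 to 3.96, wider than these distances. Which genes are nearest to *Atp2b4* is therefore uncertain.

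For *Itpr2*, by the same measure and also after its values had been seen, the nearest genes included *Utp14b*, *Epop*, *Dhrs9* and *Basp1*. *Basp1*, a membrane-associated protein best known from neurons, had 3152 and 3246 normalized counts in +*GFP* and 5231 and 5462 in +*MK2* cells. *Dhrs9*, a retinol dehydrogenase, had 1565 and 1607 against 2678 and 2706. These genes lie on other chromosomes than *Itpr2*.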
